A study of Rattus norvegicus with 6 samples.

Results

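The glycine cleavage system and the serine hydroxymethyltransferases are described here in rat kidney by 6 genes of the 17051 genes listed: Shmt1, Shmt2, Amt, Gldc, Gcsh and Dld. They were chosen by name, as the enzymes that interconvert serine and glycine and the 4 proteins that cleave glycine. The choice was made with earlier results of these data known. Of the 6 genes, 5 encode mitochondrial enzymes and 1, Shmt1, encodes a cytosolic enzyme. Kidney tissue came from 6 male Sprague Dawley rats, each sequenced as a library of its own. The AL group (rats 61, 71 and 88) ate a normal diet of standard chow. The HD group (rats 64, 67 and 69) ate a diet that the labels call hyperammonemic and the study calls pre-hyperammonemic. It was chow powder with an amino acid mixture modelled on hemoglobin, given daily at 3 g for each kg of body weight. The diets lasted 7 days, the age of the rats is not given in the sources used here, and the labels name no transgene or drug in either group. The diet was given to rats with a normal liver, so the HD group is not a model of liver failure.

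Serine hydroxymethyltransferase moves a carbon unit from serine to tetrahydrofolate and leaves glycine, and the reaction can also run from glycine to serine. Shmt1 does this in the cytosol and Shmt2 in the mitochondria. The glycine cleavage system of the mitochondrial matrix breaks glycine into carbon dioxide, ammonia and a folate-bound carbon unit. Gldc (P protein) removes the carboxyl group, Gcsh (H protein) carries the remainder on a lipoyl arm, Amt (T protein) releases ammonia and passes the carbon to tetrahydrofolate, and Dld (L protein) reoxidizes the arm. In kidney the system is known mainly from the proximal tubule, where glycine is taken up and serine is released. The comparison of the diets asked whether transcripts of these enzymes differed when the amino acid load was high, and whether the mitochondrial enzymes differed from the cytosolic one.

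The windows of 3 of the 6 promoters are shown, because Shmt2 and Dld share a motif for NRF1 (a transcription factor of nuclear genes for mitochondrial proteins) and Shmt1, the cytosolic enzyme, carries another motif. The sequences are RefSeq windows of assembly GRCr8 from 250 bases before to 50 bases after the annotated start, and all 6 genes had one. All 3 genes lie on the minus strand: Shmt2 at chr7:65249518-65249817, Dld at chr6:53652298-53652597 and Shmt1 at chr10:45990292-45990591. Capitals mark the NRF1 motif in Shmt2 and Dld and the E-box in Shmt1.
Shmt2: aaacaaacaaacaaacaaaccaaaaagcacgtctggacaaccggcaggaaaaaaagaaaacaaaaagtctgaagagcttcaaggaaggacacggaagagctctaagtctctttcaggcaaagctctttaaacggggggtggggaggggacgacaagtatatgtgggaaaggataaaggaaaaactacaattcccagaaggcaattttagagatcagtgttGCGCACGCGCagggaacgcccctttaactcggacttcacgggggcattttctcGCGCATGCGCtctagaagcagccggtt
Dld: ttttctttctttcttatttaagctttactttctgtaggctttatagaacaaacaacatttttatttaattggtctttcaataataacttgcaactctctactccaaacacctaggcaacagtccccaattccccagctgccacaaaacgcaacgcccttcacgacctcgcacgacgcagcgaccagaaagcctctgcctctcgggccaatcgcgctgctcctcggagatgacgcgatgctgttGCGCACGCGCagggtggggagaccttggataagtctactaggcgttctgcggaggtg
Shmt1: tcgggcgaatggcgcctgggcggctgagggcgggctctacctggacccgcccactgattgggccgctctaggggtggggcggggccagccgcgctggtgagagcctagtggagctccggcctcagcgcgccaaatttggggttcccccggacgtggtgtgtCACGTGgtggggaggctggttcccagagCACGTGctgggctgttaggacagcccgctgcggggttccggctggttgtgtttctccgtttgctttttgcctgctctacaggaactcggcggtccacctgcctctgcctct
The NRF1 letters, GCGCA and GCGC with any base between them, searched on both strands, stood in Shmt2 at bases -30 to -21 and again at bases 24 to 33, and in Dld at bases -7 to 3, counted from the start with no base 0. These are 2 of the 6 windows, against 4.25% of the 33469 windows of the rat genome table. The E-box letters CACGTG stood only in Shmt1 among the 6, at bases -89 to -84 and -61 to -56, against 6.42% of all windows. The GC box letters GGGCGG stood in 3 of the 6 windows, 4 times in Shmt1, 2 times in Gldc and 2 times in Gcsh, against 33.1% of all windows. The CCAAT box was found in all but Shmt2, against 37.5% of all windows. The letters TGATGCAA, searched for ATF4 (a transcription factor of the amino acid response), were in 0 of the 6 windows and in 0.795% of all windows. The Shmt1 window was richest in G and C (67.3%), and the Shmt2 window had the fewest (47.7%), beside a median of 51.7% over all windows. A match is a stretch of letters and not a measured binding site, and the motifs were chosen after the windows had been seen.

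**Figure D1:**
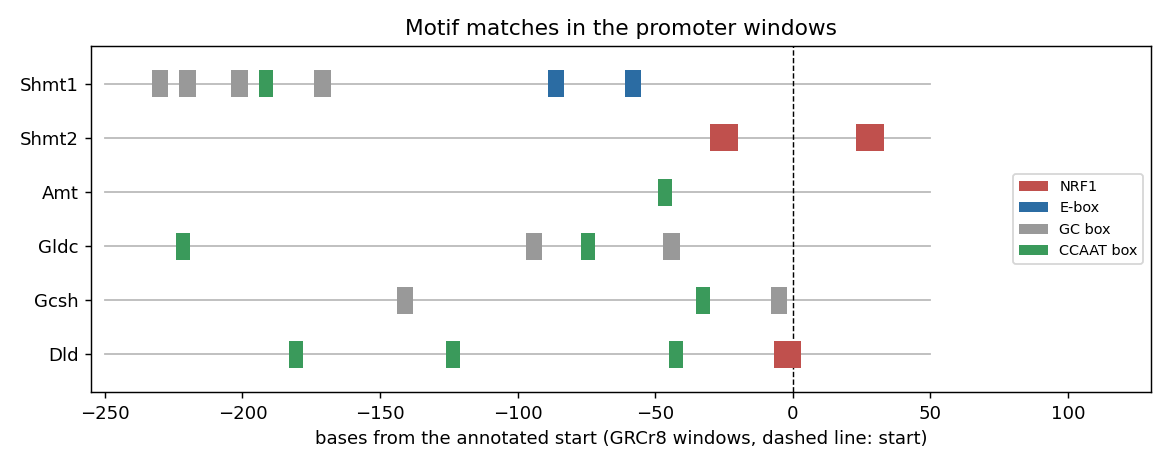
Motif matches in the 6 promoter windows, drawn by distance in bases from the annotated start, with 1 line per gene and 1 color per motif. The NRF1 motif sits near the start in Shmt2 and Dld, and the E-box pair is in Shmt1.

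In the build of the count tables, rn5, the files list 1 transcript for each gene, so no shares of transcripts could be given. Shmt1 lies on chromosome 10 at 46803226 to 46831051 (minus strand, 15 exons). Shmt2 lies on chromosome 7 at 70998104 to 71003174 (minus strand, 12 exons). Amt lies on chromosome 8 at 116421237 to 116427437 (plus strand, 8 exons), and Gldc lies on chromosome 1 at 255544864 to 255624575 (minus strand, 21 exons). Gcsh lies on chromosome 19 at 60313300 to 60324057 (minus strand, 5 exons), and Dld lies on chromosome 6 at 59273427 to 59293925 (minus strand, 14 exons). The RefSeq table of GRCr8 also holds a pseudogene named after each of Shmt2, Amt, Gcsh and Dld, and a protein-coding gene Gcshl1. None of these copies is listed in the count tables, so reads from them could have been assigned to the 4 genes, whose levels are uncertain to that extent.

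The estimated counts summed to between 12499945 and 30466461 per rat, lowest in rat 64 and highest in rat 69, both of the HD group. A minimum count of 30, reached in any 1 rat, left 11553 genes for testing, among them all 6 described here. After Benjamini-Hochberg adjustment of edgeR's quasi-likelihood test, 0 of the 11553 genes (0%) reached an adjusted *P* value of 0.05. At an unadjusted *P* value below 0.05 edgeR gave 1224 genes (10.6%), while DESeq2 gave 182 genes past its adjusted threshold (1.58%) and limma-voom gave 0. Proximal tubule markers were abundant, with a summed level of 28505 to 32476 CPM (counts scaled to a common library size) among AL rats and 28392 to 36596 CPM among HD rats. By edgeR's estimate 9 of the 11 tested were higher in the HD group, against 5928 of 11553 over all tested genes. The defining markers Slc5a2 and Slc5a12 were near 0, at no more than 2.15 CPM for Slc5a2. Of the hepatocyte markers, 3 of 8 passed the count minimum, and Alb did not exceed 1.79 CPM in any rat, whereas Apoh lay between 23.4 and 51.7 CPM and made up most of the list's sum.

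Shmt2, the mitochondrial hydroxymethyltransferase, had no HD rat as low as any AL rat on the CPM scale, whereas its cytosolic counterpart Shmt1 overlapped between the diets. All CPM values were normalized between libraries by the TMM method. In AL rats 61, 71 and 88, Shmt2 was at 81.2, 96.7 and 82.3 CPM, and in HD rats 64, 67 and 69 at 138, 110.1 and 107 CPM. The means were 86.8 ± 8.64 CPM (SD, n = 3) and 118 ± 17.2 CPM (SD, n = 3), and rat 64 was the highest. The difference was 1.36-fold, a log2 fold change of 0.45 (SE 0.14, 95% interval 0.12 to 0.77) with an adjusted *P* value of 0.406 in edgeR. DESeq2 at default settings gave an adjusted *P* value of 0.176. Shmt2 passed the threshold only when DESeq2 was run with a local dispersion fit (adjusted *P* = 0.0471), a setting that called 3.77% of all tested genes. In bulk kidney, here and for all values that follow, a difference in the number of cells of a type and a difference in RNA per cell cannot be told apart.

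Shmt1 was at 129.5, 94.0 and 118 CPM in AL rats 61, 71 and 88, and at 123, 116 and 98.2 CPM in HD rats 64, 67 and 69. The groups overlapped, with the highest and the lowest rat both in the AL group. The means of Shmt1 were 114 ± 18.1 CPM and 112 ± 12.7 CPM (SD, n = 3 each). On the log2 scale the difference was -0.02 (SE 0.15, 95% interval -0.38 to 0.34, adjusted *P* = 0.982 in edgeR and 0.994 in DESeq2). The interval leaves room for a difference of up to 1.26-fold higher or 0.771-fold of the AL level, so a small difference was not detectable with these rats.

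The 4 proteins of the glycine cleavage system were all estimated higher in the HD group, by 1.24-fold to 1.99-fold, and none passed the adjusted threshold. Gldc, the decarboxylase that opens the reaction, had the largest estimate among the 6 genes and the smallest counts. It was at 6.51, 11.4 and 12.4 CPM in AL rats 61, 71 and 88, and at 30.3, 14.4 and 16.3 CPM in HD rats 64, 67 and 69. The groups did not overlap, but rat 64 stood far above and rat 61 well below the other 4 rats, which lay between 11.4 and 16.3 CPM. The log2 fold change of Gldc was 1.00 (SE 0.35, 95% interval 0.18 to 1.82, adjusted *P* = 0.408 in edgeR and 0.166 in DESeq2). It was 0.60 without rat 64 and 0.37 without both rats 61 and 64. The estimated count of Gldc was 82.0 in rat 61, with an exact 95% Poisson interval of 65.2 to 102, and 509 in rat 69, with an interval of 466 to 555. These intervals cover counting error only.

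Amt, which releases the ammonia, was at 79.8, 64.0 and 73.4 CPM in AL rats 61, 71 and 88. HD rats 64, 67 and 69 had 131, 98.2 and 88.9 CPM of Amt. The groups did not overlap, and rat 64 was again the highest. The means of Amt were 72.4 ± 7.94 CPM and 106 ± 22.2 CPM (SD, n = 3 each). The log2 fold change was 0.55 (SE 0.17, 95% interval 0.15 to 0.95, adjusted *P* = 0.406 in edgeR and 0.146 in DESeq2). As with Shmt2, only DESeq2 with a local dispersion fit brought Amt past the threshold (adjusted *P* = 0.0388).

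Gcsh, the lipoyl carrier, was at 294, 213 and 210.3 CPM in AL rats 61, 71 and 88, and at 340.2, 300.3 and 277 CPM in HD rats 64, 67 and 69. The groups overlapped because rat 61 lay above rat 69. The difference amounted to a log2 fold change of 0.35 (SE 0.17, 95% interval -0.03 to 0.74, adjusted *P* = 0.503 in edgeR and 0.455 in DESeq2).

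Dld, which the glycine cleavage system shares with several dehydrogenase complexes, was at 313, 279 and 270.5 CPM in AL rats 61, 71 and 88, and at 396, 369.7 and 301 CPM in HD rats 64, 67 and 69. Rat 61 lay above rat 69, so the groups of Dld overlapped too. The log2 fold change was 0.31 (SE 0.14, 95% interval -0.02 to 0.63, adjusted *P* = 0.493 in edgeR and 0.441 in DESeq2).

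On the CPM scale, 3 of the 6 genes (Shmt2, Amt and Gldc) had all HD rats above all AL rats, against 7.25% of all tested genes. The same 3 genes had an unadjusted *P* value below 0.05 in edgeR, where 4.66% of all tested genes were higher in the HD group at that level. In the opposite direction none of the 6 genes was separated (7.01% of all tested genes) or had an unadjusted *P* value below 0.05 (5.94%). Because the 6 genes were chosen with earlier results of these data known, these shares and those given below describe them. They are no test of the 6 genes as a set. An exact two-sided permutation test gave *P* = 0.1 for each of Shmt2, Amt and Gldc, the smallest value that 3 rats against 3 allow. Groups without overlap always give this value, so it adds nothing to their separation. The same exact test gave *P* = 0.2 for Gcsh and Dld and *P* = 0.9 for Shmt1. Rat 64, the rat with the smallest library, was the highest of all 6 rats for 5 of the 6 genes, all but Shmt1.

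**Figure D2:**
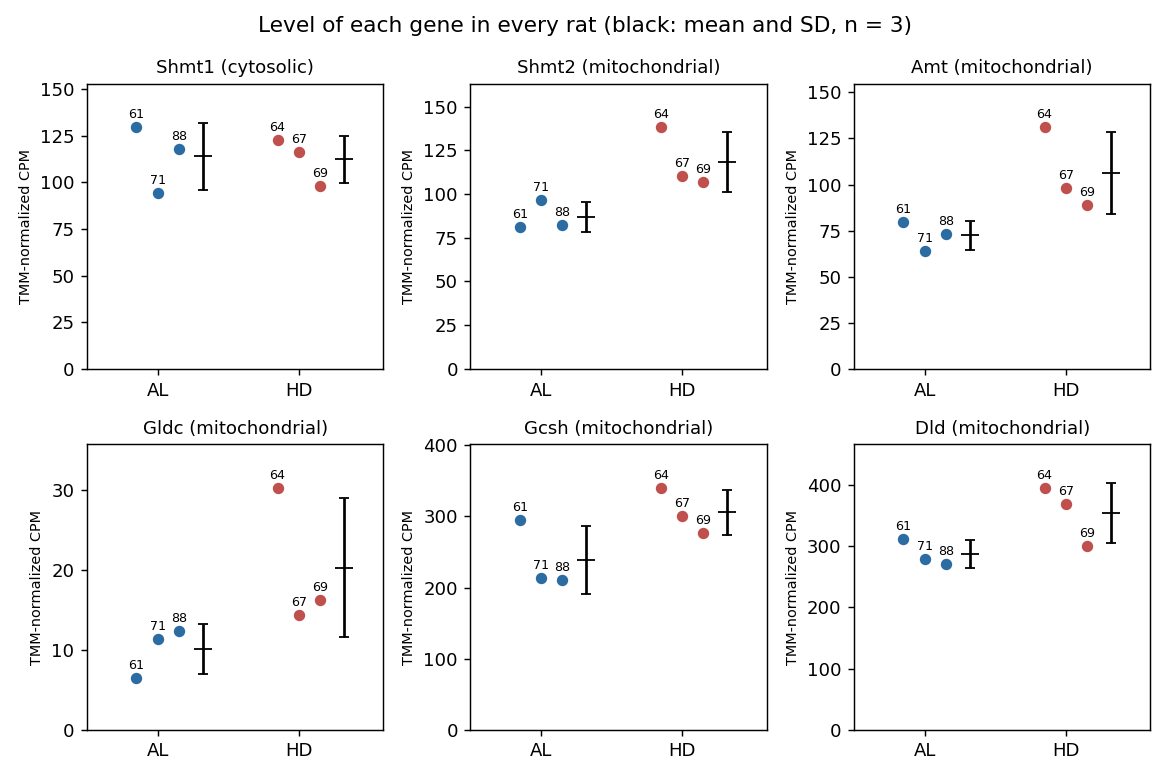
TMM-normalized CPM of each gene in every rat (blue: AL, red: HD), with the rat number above each point and the group mean with its SD in black (n = 3), and each axis from 0. The groups of Shmt2, Amt and Gldc do not overlap, while those of Shmt1, Gcsh and Dld do, and rat 64 is highest in 5 of the 6 panels.

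TPM values, which scale to transcript length and to the sum of all transcripts, separated the groups of a different set of genes. In TPM the groups of Amt, Gldc, Gcsh and Dld did not overlap, with the HD group higher, which makes 4 of 6 genes against 4.25% of all tested genes. Gcsh was listed at 348, 302 and 279 TPM in rats 61, 71 and 88, and at 413, 359 and 367 TPM in rats 64, 67 and 69. Shmt2 overlapped on this scale, since rat 71 of the AL group (82.2 TPM) lay above rat 67 of the HD group (78.8 TPM). The TPM estimates were also smaller, as limma on log2(TPM + 0.5) gave a log2 fold change of 0.37 for Shmt2, 0.46 for Amt and 0.23 for Dld, with adjusted *P* values of 0.569, 0.499 and 0.570. Shmt1 was -0.08 (adjusted *P* = 0.851 in limma).

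**Figure D3:**
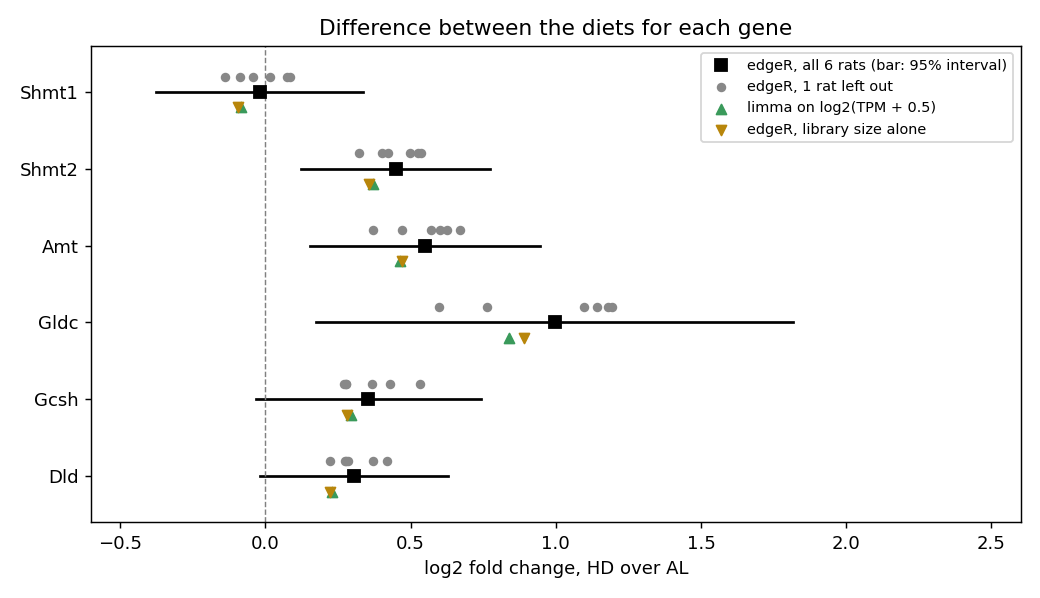
Log2 fold change of each gene, HD over AL. Black squares with bars are the edgeR estimates with their 95% intervals, grey points leave out 1 rat each, and triangles show library size alone (down) and limma on log2(TPM + 0.5) (up). The estimates of the 5 mitochondrial genes are above 0 in every setting drawn, and those of Shmt1 lie on both sides of 0.

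The ratio of the mitochondrial to the cytosolic hydroxymethyltransferase was compared within each rat in TPM, since such a ratio does not depend on how libraries are scaled. Shmt2 over Shmt1 was 0.627, 1.03 and 0.698 in AL rats 61, 71 and 88, and 1.13, 0.950 and 1.09 in HD rats 64, 67 and 69. The groups overlapped, because rat 71 lay above rat 67. On the log2 scale the ratio was 0.46 higher in the HD group, a 1.37-fold difference (exact two-sided permutation test, *P* = 0.2). Shmt1 was the more abundant of the pair in rats 61, 88 and 67, and Shmt2 in rats 71, 64 and 69.

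The ratio to Shmt1 was also taken for the other mitochondrial genes. In 4 of the 5 mitochondrial genes (Amt, Gldc, Gcsh and Dld) the ratio to Shmt1 was higher in the HD rats without overlap, against 5.22% of all tested genes. These ratios share 1 denominator, Shmt1, so they are not separate observations. In CPM the groups of Gcsh and Dld overlapped. The log2 ratio of Amt to Shmt1 ran from -0.66 to -0.52 in the AL group and from -0.20 to 0.13 in the HD group. That of Gcsh to Shmt1 ran from 1.58 to 1.92 in the AL group and from 2.11 to 2.24 in the HD group. For Gldc the gap between the groups was narrow, from -3.78 in the highest AL rat to -3.75 in the lowest HD rat. For Dld it was narrow too, from 1.54 to 1.58.

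Within the glycine cleavage system, Gldc was scarce beside Gcsh. Gldc over Gcsh was 0.00796, 0.0193 and 0.0211 in AL rats 61, 71 and 88, and 0.0320, 0.0172 and 0.0211 in HD rats 64, 67 and 69. The groups overlapped, with rat 67 below 2 of the AL rats. The log2 ratio was 0.62 higher in the HD group (exact two-sided permutation test, *P* = 0.5), but only 0.17 without rat 61 and 0.37 without rat 64.

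**Figure D4:**
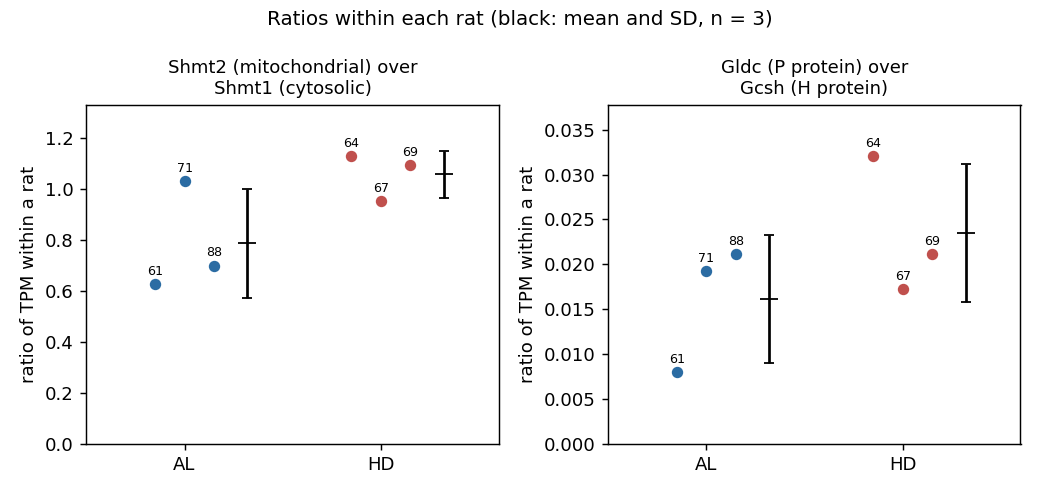
Ratio of TPM within each rat for Shmt2 over Shmt1 (left) and Gldc over Gcsh (right), by group, with the mean and SD in black (n = 3) and axes from 0. Both pairs overlap between the diets, and rat 61 is the lowest in both panels.

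The levels of the 6 genes, in TPM and averaged over the 6 rats, followed the order Gcsh (345 ± 48.0, SD), Dld (238 ± 26.9), Shmt1 (85.9 ± 6.55), Shmt2 (78.2 ± 15.2), Amt (69.2 ± 15.7) and Gldc (6.94 ± 3.48). Gcsh was above Dld in 6 of 6 rats, by 1.44-fold on average, although their ranges over rats overlapped. Dld was above Shmt1 in 6 of 6 rats with no overlap of ranges, by 2.77-fold. Shmt1 and Shmt2 could not be ranked, as Shmt1 was the higher in 3 of 6 rats, and Shmt2 was above Amt in 5 of 6 rats by 1.13-fold. Amt was above Gldc in 6 of 6 rats, by 10.8-fold on average and by 7.38-fold to 20.9-fold in single rats. Gcsh exceeded 95.5% of all tested genes in mean TPM and Gldc 29.9%. Gldc also varied most between rats of a group, with a coefficient of variation in CPM of 31.1% among AL rats and 42.8% among HD rats, against 7.78% and 13.8% for Dld.

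Of the neighboring pathways, the other complexes that use Dld were estimated higher throughout, with 11 of 11 tested genes above 0, 4 of them at an unadjusted *P* value below 0.05 in edgeR, and a median log2 fold change of 0.25. Over all tested genes, 5928 of 11553 were above 0, 4.66% were higher at that *P* value, and the median was 0.0067 with TMM and -0.07 with library size alone. Dbt, the core subunit of the branched-chain ketoacid dehydrogenase, was 109.8, 93.8 and 105 CPM in rats 61, 71 and 88 and 139.6, 138 and 125 CPM in rats 64, 67 and 69, with no overlap. Ogdh, the first subunit of 2-oxoglutarate dehydrogenase, had a log2 fold change of 0.47 (SE 0.16) with overlapping groups. Dhtkd1, the corresponding subunit for 2-oxoadipate, had 0.34 (SE 0.12) with no overlap. None of these passed the adjusted threshold (lowest adjusted *P* = 0.398 in edgeR). In DESeq2 the adjusted *P* values of Dbt, Ogdh and Dhtkd1 were 0.122, 0.207 and 0.255.

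Other enzymes of glycine and serine supply and use were estimated higher in 18 of 19 tested genes, with 6 at an unadjusted *P* value below 0.05 (all tested genes: 5928 of 11553 higher, 4.66% at that *P* value) and a median log2 fold change of 0.26. Gatm, which uses glycine to make the creatine precursor guanidinoacetate, was 443, 344 and 288 CPM in rats 61, 71 and 88. It was 1358, 887 and 543 CPM in rats 64, 67 and 69, and its groups did not overlap. Its log2 fold change was 1.37 (SE 0.33, adjusted *P* = 0.368 in edgeR and 0.00270 in DESeq2). Agxt2, a mitochondrial aminotransferase that makes glycine from glyoxylate, was 1219.8, 1132 and 1363 CPM in the AL rats in the same order, and 1898, 1823 and 1724 CPM in the HD rats. Its log2 fold change was 0.55 (SE 0.13, adjusted *P* = 0.368 in edgeR and 0.00352 in DESeq2). Sardh, which forms glycine from sarcosine in mitochondria, had a log2 fold change of 0.56 (SE 0.18, adjusted *P* = 0.406 in edgeR and 0.166 in DESeq2) and groups that did not overlap.

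The genes that make serine or bring it into mitochondria were higher in 5 of 6 (all tested genes: 5928 of 11553). Their median was 0.21 with TMM and 0.11 with library size alone. Sfxn1, a mitochondrial serine transporter, was the one with an unadjusted *P* value below 0.05 (4.66% of all tested genes were higher at that level). It was 170.0, 169.7 and 154 CPM in rats 61, 71 and 88 and 299.6, 222 and 182 CPM in rats 64, 67 and 69, a log2 fold change of 0.51 (SE 0.18, adjusted *P* = 0.409 in edgeR and 0.227 in DESeq2). Among lipoate assembly and attachment genes, 9 of 11 were higher (all tested genes: 5928 of 11553), with a median of 0.16 with TMM and 0.09 with library size alone. Mecr, an enzyme of the mitochondrial fatty acid synthesis that supplies the lipoyl group, had 0.49 (SE 0.14, adjusted *P* = 0.398 in edgeR and 0.145 in DESeq2) and no overlap.

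In the mitochondrial folate list 2 of 5 tested genes were higher and 3 lower, none at an unadjusted *P* value below 0.05, with a median log2 fold change of -0.24. Over all tested genes 5928 of 11553 were higher and 5625 lower, and at that *P* value 4.66% were higher and 5.94% lower. The lower genes of the list were Mthfd2 (-0.24, SE 0.41), Mthfd2l (-0.38, SE 0.39) and Mthfd1l (-0.78, SE 0.38), all with overlapping groups and no more than 6.17 CPM in any rat. The higher ones were the folate carrier Slc25a32 (0.12, SE 0.24) and the formyltransferase Mtfmt (0.09, SE 0.14). These 5 genes are given after their values were seen. In the cytosolic folate list 8 of 12 were higher (all tested genes: 5928 of 11553), and the median was 0.07 with TMM and -0.02 with library size alone. Aldh1l1, a cytosolic enzyme that oxidizes formyl-tetrahydrofolate to carbon dioxide, was 179.7, 157 and 168 CPM in rats 61, 71 and 88 and 238, 237 and 266 CPM in rats 64, 67 and 69. Its log2 fold change was 0.55 (SE 0.11, adjusted *P* = 0.338 in edgeR and 0.00255 in DESeq2).

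Glycine transporters had 5 of 8 genes higher, 1 in each direction at an unadjusted *P* value below 0.05, and a median of 0.07 with TMM and -0.02 with library size alone. Over all tested genes 5928 of 11553 were higher, and at that *P* value 4.66% were higher and 5.94% lower. Slc38a2, a carrier of small neutral amino acids, was the one that was lower at that *P* value. It was 293, 254 and 325 CPM in rats 61, 71 and 88 and 146, 216 and 147 CPM in rats 64, 67 and 69, a log2 fold change of -0.78 (SE 0.19, adjusted *P* = 0.368 in edgeR and 0.0127 in DESeq2). Slc6a20, an imino acid carrier, was 62.3 to 64.8 CPM among AL rats and 65.9 to 113 CPM among HD rats (log2 fold change 0.53, SE 0.19, adjusted *P* = 0.409 in edgeR and 0.242 in DESeq2). The gene farthest to the right in the plot of the pathways is Slc36a2 (log2 fold change 2.88, SE 1.25), which was named after its value was seen and did not exceed 3.33 CPM in any rat.

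**Figure D5:**
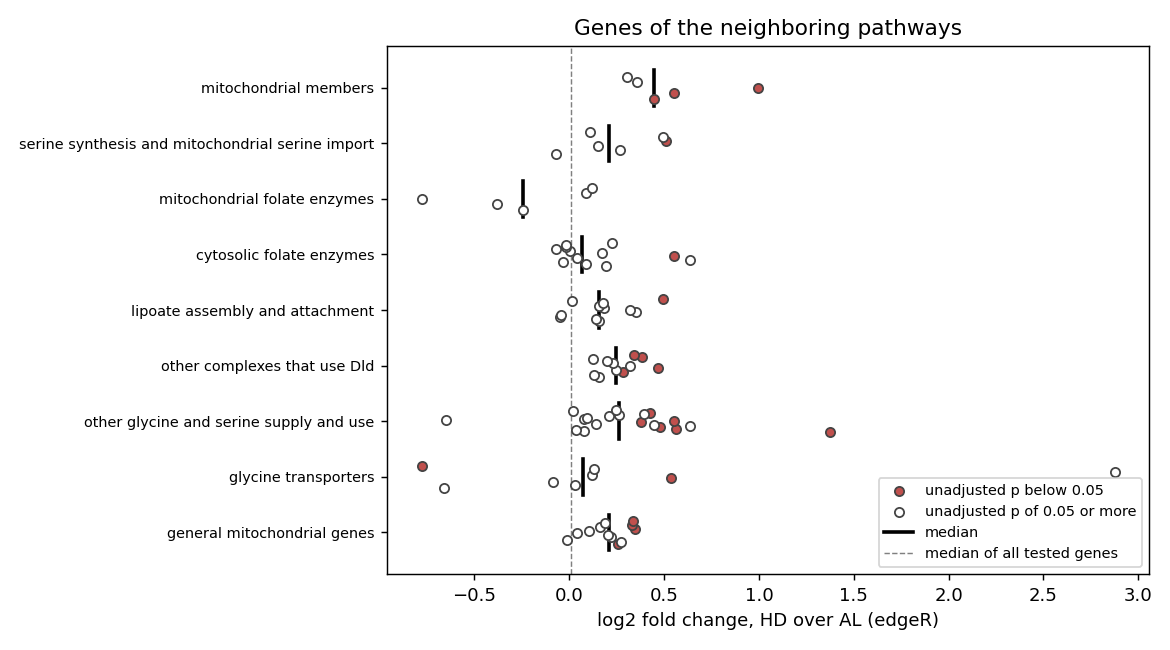
Log2 fold change (HD over AL, edgeR) of each tested gene in the neighboring pathways, with the 5 mitochondrial members on top. Filled points have an unadjusted *P* value below 0.05, black bars are list medians and the dashed line is the median of all tested genes, and 11 of the 11 genes in the row of other complexes that use Dld lie to its right.

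General mitochondrial genes moved with these results and are therefore given beside them. Of 12 such genes 11 were estimated higher in the HD group, 4 at an unadjusted *P* value below 0.05 (all tested genes: 5928 of 11553 higher, 4.66% at that *P* value), and their median was 0.21 with TMM and 0.13 with library size alone. Their summed level was 8192 to 9896 CPM among AL rats and 10034 to 10316 CPM among HD rats, with no overlap but a narrow gap. Atp5b made up the largest part of the sum, at 4049 to 4768 CPM among AL rats and 4795 to 5151 CPM among HD rats. Of the 12 genes, 5 had all HD rats above all AL rats, against 7.25% of all tested genes. Immt (cristae organization), Ndufs1 (respiratory complex I) and Sdha (complex II) had log2 fold changes of 0.34, 0.33 and 0.34, close to those of Gcsh and Dld.

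Markers of several kidney cell types differed between the groups too. Over all tested genes 5928 of 11553 were higher and 5625 lower, and 5.94% were lower at an unadjusted *P* value below 0.05 in edgeR. All HD rats lay above all AL rats in 7.25% of all tested genes and below them in 7.01%. Proximal tubule markers had 0.22 as the median of their log2 fold changes with TMM and 0.14 with library size alone, with overlapping sums. Of the 11 tested, 3 had all HD rats above all AL rats. Slc34a1, their phosphate transporter, was 1 of these (log2 fold change 0.70, SE 0.24, adjusted *P* = 0.406 in edgeR and 0.0997 in DESeq2). The 2 that were lower, Cubn (-0.05, SE 0.14) and Kap (-0.06, SE 0.18), overlapped between the groups. Podocyte markers summed to 54.9 to 128 CPM among AL rats and 193 to 417 CPM among HD rats, with 6 of 6 higher. Distal tubule markers were higher in 2 of 2 tested genes, with a summed level of 63.0 to 131 CPM among AL rats and 191 to 699 CPM among HD rats. Of these, Slc12a3, the thiazide-sensitive salt transporter, had a log2 fold change of 2.93 (SE 0.58, adjusted *P* = 0.338 in edgeR and 0.00473 in DESeq2). Thick ascending limb markers were lower in 5 of 5, with a median of -0.17 and overlapping sums of 6341 to 7403 CPM and 4400.5 to 7029 CPM. Slc12a1, their salt transporter, was lower in each HD rat without overlap (-0.86, SE 0.31, adjusted *P* = 0.409 in edgeR and 0.110 in DESeq2). The other markers of this list overlapped between the groups, with Egf at -0.21, Cldn16 at -0.17, Umod at -0.12 and Kcnj1 at -0.05. Collecting duct principal cell markers were lower in 4 of 5 and without overlap in 3, with a median of -0.41 and overlapping sums of 1238 to 1424 CPM and 1039 to 1240.2 CPM. Aqp4, a water channel of these cells, had -1.02 (SE 0.17, adjusted *P* = 0.325 in edgeR and 7.1e-05 in DESeq2). Aqp2, the most abundant marker of this list, had -0.05 (SE 0.15) and Scnn1g had 0.13 (SE 0.17), both with overlapping groups. Intercalated cell markers were higher in 4 of 5 with a median of 0.27, endothelial markers lower in 5 of 6 with -0.33, and smooth muscle and mesangial markers higher in 3 of 5 with 0.34, each with overlapping sums. Of the intercalated cell markers, Slc26a4 (1.20, SE 0.21) was higher and Slc4a1 (-0.56, SE 0.17) lower in the HD rats without overlap, and the others overlapped. All smooth muscle and mesangial markers overlapped, with Pdgfrb at -1.18 (SE 0.44). Leukocyte markers were lower in 6 of 6 tested genes, 4 at an unadjusted *P* value below 0.05, with a median of -1.32. Their sums overlapped, at 231 to 392 CPM and 139 to 300.03 CPM, and were mostly Cd74 (-0.27, SE 0.30). Ptprc, the common leukocyte antigen, had -1.61 (SE 0.39, adjusted *P* = 0.368 in edgeR and 0.0133 in DESeq2), and Cd3e did not exceed 0.192 CPM in any HD rat. The part of mitochondrial content or of cell composition in the differences of the 6 genes was not tested.

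The genes nearest to each of the 6 in their pattern over the rats were taken by the root mean square difference of centered log2 CPM over 6 rats, among 9376 genes with a mean of at least 5 CPM. For Shmt2 they were Tmbim6 (0.0409), Habp4 (0.0556) and Asb13 (0.0588). For Amt they were Ctsl1 (0.0862), Prosc (0.0900) and Gclm (0.0928), and for Gldc they were Prrg4 (0.204), Acbd5 (0.210) and Folh1 (0.229). The differences were largest for Gldc. For Dld the nearest genes were Rnf2 (0.0335), Prmt3 (0.0338) and Pak1 (0.0412). Near to Gcsh were Bphl (0.0496) and Nipsnap1 (0.0536), and the nearest to Shmt1 were Acn9 (0.0380), Parl (0.0399) and Dazap2 (0.0402). Among the 6 genes themselves, Gcsh and Dld were the closest pair (0.115) and Shmt1 and Gldc the farthest (0.672).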

How the data were processed

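Poly(A)-selected kidney RNA of 6 rats was sequenced as single reads of 100 bases, 1 library per rat. Per the labels, the authors quantified transcripts with RSEM 1.1.15 and genome build rn5, and the study's methods give UCSC gene definitions. The authors deposited for every transcript an expected count without normalization, and the posterior mean of that count. The deposited TPM values are scaled to transcript length and to the library. The deposited FPKM values entered 1 alternative only. Filters on the reads are not given in the sources used here.

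Expected counts were summed per gene and rounded. Genes that reached a count of 30 in any 1 rat were tested with edgeR 4.0.16 (R 4.3.3) by the quasi-likelihood test with TMM normalization, diet as the only factor and Benjamini-Hochberg adjustment over all tested genes, at a threshold of 0.05. The common biological coefficient of variation was 0.242. Normalized CPM were computed from the same counts. Standard errors were the absolute log2 fold change over the square root of the F statistic. Ratios were tested by exact two-sided permutation over 10 divisions of the rats. DESeq2 1.42.0, limma 3.58.1, other scalings, filters and rat sets were alternatives, and the scripts were tested on simulated data. The libraries were checked for duplicates by a chi-square of their counts, which was 22.6 or more per degree of freedom for every pair of rats.

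The members, lists and motifs were chosen with earlier results of these data known. Named were the 6 genes, from each pathway list at most 3 genes with the smallest unadjusted *P* below 0.05, and the 3 nearest genes by pattern, besides marker genes beside a result, Slc36a2 and the mitochondrial folate genes. A result covered by this rule is not reported here. Promoter windows came from RefSeq (GRCr8), which is a different build from that of the counts.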

Additional observations from a re-analysis of the deposited data

How the results depend on the processing

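The number of genes past the threshold was 0 with edgeR, 182 with DESeq2 at default settings, 436 with DESeq2 and a local dispersion fit, 2 with no count filter, between 0 and 4 with 1 rat left out and 2 without both rats 61 and 64. At an unadjusted *P* value below 0.05, edgeR gave 538 higher and 686 lower genes with TMM, and 317 higher and 847 lower with library size alone. The log2 fold change of Shmt2 was 0.44 (adjusted *P* = 0.0471) and that of Amt 0.54 (adjusted *P* = 0.0388) with the local fit, the only setting in which either passed. Over all settings the adjusted *P* value ran from 0.0471 to 0.916 for Shmt2, from 0.0388 to 0.916 for Amt and from 0.0600 to 0.944 for Gldc, and never fell below 0.189 for Gcsh, 0.219 for Dld or 0.825 for Shmt1. With 1 rat left out, the log2 fold change ran from 0.32 to 0.53 for Shmt2, 0.37 to 0.67 for Amt, 0.60 to 1.19 for Gldc, 0.27 to 0.53 for Gcsh, 0.22 to 0.42 for Dld and -0.14 to 0.084 for Shmt1. The log2 ratio of Shmt2 to Shmt1 then ran from 0.31 to 0.67 and that of Gldc to Gcsh from 0.17 to 0.87. Without both rats 61 and 64, Shmt2 had 0.28, Gldc 0.37 and Shmt1 0.015. Shmt1 was above 0 in 4 of 17 alternatives, and the cause was not tested. The 5 mitochondrial genes were above 0 in all 17. The omission of rats 61 and 64 together and limma on TPM were chosen after seeing the data. The 3 rats per group and their spread limit what can be told apart. No paired analysis was run, because the rats were assigned to the diets at random and no pairing is described.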
